A study of Mus musculus with 60 samples.

Results

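The genes described here are 5 transcription factor genes known mainly from the forebrain: the doublesex-related genes Dmrta1, Dmrta2 and Dmrt3, and the empty spiracles homeobox genes Emx1 and Emx2. They were taken by name, and each matched 1 row of the 24378 features in the deposited table of RPKM values (reads per kilobase of listed transcript length and per 1000000 assigned reads). The study sequenced total RNA from pieces of mouse embryo brain: the ventral midbrain (floor plate with basal plate), ventral forebrain, ventral hindbrain, dorsal midbrain and alar plate, each on 4 embryonic days from E11.5 to E14.5, with 3 libraries per region and stage and 60 in all. Every group, controls included, carried the same genotype, TH-GFP, a transgenic reporter that lights up dopaminergic tissue. No gene was targeted, and the only variables were region and stage. Nothing in the labels ties a library to its own embryo or to a pool, so p-values measure the spread between these samples, which may be technical.

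The DMRT factors bind DNA through the DM domain, a zinc finger shared with the sex-determination gene doublesex, and Dmrta1, Dmrta2 and Dmrt3 form the subgroup that is active in the dorsal telencephalon. Dmrta2 is needed for the cortical hem and the hippocampus, and it also holds back unwanted fates in the midbrain floor plate, where dopaminergic neurons are born. Emx1 and Emx2 are homeobox genes of the cortical primordium. Emx2 sets up area identity along the cortex and is also active in the diencephalon and the midbrain roof.

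In GENCODE vM21 on mm10, the build named in the submitters' processing notes, all 5 are protein-coding genes on the plus strand: Dmrta1 at chr4:89679436-89694772, Dmrta2 at chr4:109978053-109983687, Dmrt3 at chr19:25610301-25623921, Emx1 at chr6:85187438-85204462 and Emx2 at chr19:59458372-59465357. The stretches before the RefSeq starts of Dmrta1 and Dmrta2 are printed since these close paralogues stood far apart in level in the ventral midbrain. The RefSeq start of Dmrta1, at 89688198, lies within the GENCODE span, so its stretch is upstream by RefSeq only. They are RefSeq sequence of GRCm38.p6, plus strand, from the 250 bases before each start, with bases that belong to another annotated exon left out. Capitals mark matches, on either strand, to the E-box CANNTG, the CCAAT box CCAAT and the GC box GGGCGG.
Dmrta1 chr4:89687948-89688197: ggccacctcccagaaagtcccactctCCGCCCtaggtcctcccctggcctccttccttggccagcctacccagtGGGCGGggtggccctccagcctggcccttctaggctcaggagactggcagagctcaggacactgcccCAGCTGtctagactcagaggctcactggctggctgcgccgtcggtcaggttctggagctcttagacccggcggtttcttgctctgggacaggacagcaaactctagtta
Dmrta2 chr4:109977775-109977988: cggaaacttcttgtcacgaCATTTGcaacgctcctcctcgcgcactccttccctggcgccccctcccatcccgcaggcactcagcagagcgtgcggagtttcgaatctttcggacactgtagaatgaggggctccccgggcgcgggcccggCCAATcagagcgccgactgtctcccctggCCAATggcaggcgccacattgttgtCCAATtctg
The Dmrta2 flank held 3 CCAAT matches and the Dmrta1 flank none. Of 32851 RefSeq promoter windows of this length, 33.8% held at least 1 CCAAT and 2.79% held 3 or more. The Dmrta1 flank held 2 GC boxes, which 16.7% of windows matched or exceeded, and each flank held 1 E-box, found in 66.2% of windows. No window of the 5 genes held a TATAAA or TAATTA match, and these matches describe letters, not binding sites.

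In units of 1000000 assigned reads, library totals spanned 1.58 to 6.43 (E11.5), 8.67 to 13.1 (E12.5), 4.97 to 23.6 (E13.5) and, lowest of all, 0.979 to 6.13 (E14.5). Judged by correlation with the other groups of their stage, 7 libraries matched another region better than their own by over 0.01. They were alar plate E11.5 replicates 2 and 4, ventral midbrain E11.5 replicate 4, ventral hindbrain E11.5 replicate 2, ventral forebrain E11.5 replicate 4, ventral forebrain E12.5 replicate 1 and alar plate E12.5 replicate 3. In the ventral forebrain the hypothalamic marker Nkx2-1 ranged from 0 to 30.8 RPKM at E11.5 and from 48.3 to 80.5 at E14.5. By the name prefixes in the labels, taken as sequencing runs, the E12.5 libraries share a prefix and so do those of E13.5. The prefix of the E11.5 dorsal midbrain is not that of the remaining E11.5 libraries but that of the E14.5 hindbrain, forebrain and alar plate, and the E14.5 ventral and dorsal midbrain have one of their own. Within a region, stage and run cannot be told apart. Nor can region and run where the E11.5 dorsal midbrain is compared with the rest of its stage. The same holds at E14.5 where the ventral or dorsal midbrain is compared with the forebrain, hindbrain or alar plate.

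Dmrta2 was the ventral midbrain gene of the group. In that region it stood at 40.5, 39.8 and 36.8 RPKM in the E12.5 replicates 1, 2 and 3, at 37.0, 33.7 and 32.8 in the E13.5 replicates 4, 5 and 6, and at 10.7, 12.9 and 12.4 in the E14.5 replicates 2, 3 and 4. All 9 lay above each library of the other regions at the same stage. At E11.5 the ventral midbrain replicates 2, 4 and 6 gave 32.0, 3.28 and 35.1, so 1 of 3 was low. That library also held 87.5 RPKM of 7 summed floor plate markers (Foxa2, Foxa1, Shh, Corin, Lmx1a, Spon1 and Ntn1), against 587 and 627 in the other two. The part of tissue composition in its Dmrta2 value was not tested.

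**Figure D1:**
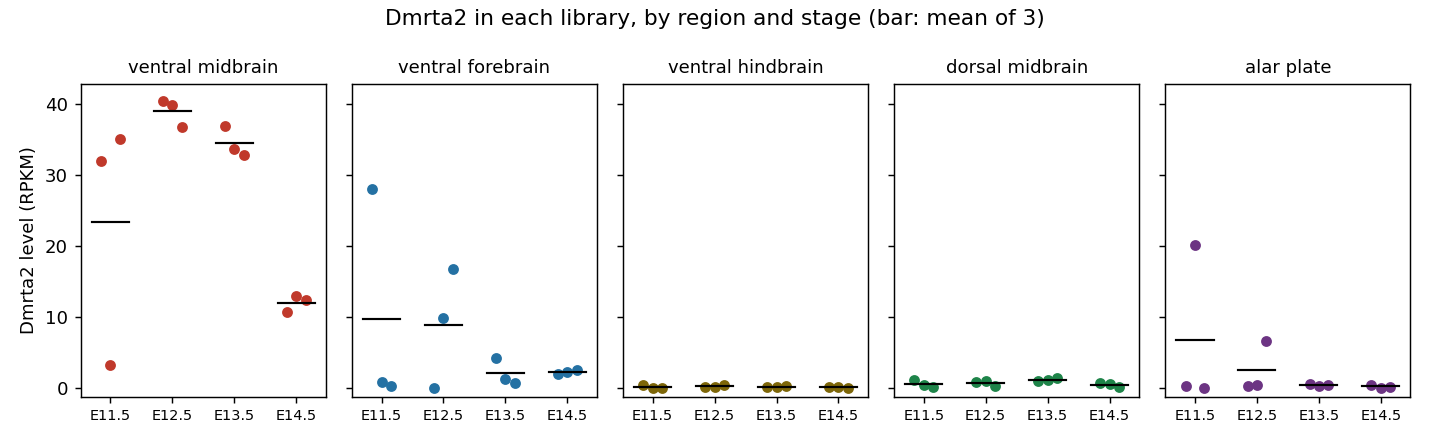
Dmrta2 level in RPKM (vertical axis) in each library (points) by stage (horizontal axis) and region (panels), with the mean of 3 as a bar. The ventral midbrain libraries of E12.5 and E13.5 sit between 32.8 and 40.5, those of E14.5 between 10.7 and 12.9, and the low E11.5 point is replicate 4 at 3.28.

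Against the mean of the 4 other regions, Dmrta2 was higher in the ventral midbrain by 4.08 ± 0.67 (SE) on the log2(RPKM + 1) scale at E12.5 (limma adjusted p = 0.00124). The difference was 4.30 ± 0.23 one day later (4.03e-08) and 3.01 ± 0.16 at E14.5 (4.09e-08). At E11.5 it was 2.98 ± 0.99 and did not pass (adjusted p = 0.357), though it passed with all 60 libraries in 1 fit (0.00571). That fit takes 1 residual variance per gene over all stages. In the fits by stage, the SE of a Dmrta2 difference between 2 regions was 1.26 at E11.5, 0.84 at E12.5, 0.29 at E13.5 and 0.20 at E14.5. Passing in the 1 fit is therefore no support for a difference at E11.5. Dmrta2 calls at E14.5 that were lost in it rest on the same pooled variance. A gene was called at an adjusted p below 0.05 and a change of at least 1 on this scale, among genes whose mean reached 1 RPKM in some group. By that rule 2 of 4 tested members were called in the ventral midbrain at E12.5 (Dmrta2 and Emx2), where 3.53% of all tested genes were, and 1 of 3 at E13.5 and at E14.5 (Dmrta2), where 2.41% and 3.28% were. At E11.5 limma called 0 of 5, voom also 0, and 2 had an unadjusted p under 0.05, with 0.0217% of all genes called.

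Set against single regions, Dmrta2 in the ventral midbrain was higher than in the hindbrain, dorsal midbrain and alar plate at E12.5, E13.5 and E14.5, by 3.17 to 4.98 (all called). The E12.5 hindbrain call was lost in voom, a count-based fit (adjusted p = 0.0988). Against the ventral forebrain it was higher by 3.70 ± 0.29 at E13.5 (limma adjusted p = 1.83e-06) and by 1.98 ± 0.20 at E14.5 (1.9e-05, or 0.121 with all 60 libraries in 1 fit), while the E12.5 difference of 2.76 ± 0.84 did not pass (0.0627). The ventral forebrain was the region next in order at every stage, and its libraries differed widely. They gave 28.1, 0.941 and 0.263 RPKM at E11.5 (replicates 2, 4 and 6), and 0.0695, 9.83 and 16.8 at E12.5 (replicates 1, 2 and 3). At E13.5 they gave 4.32, 1.24 and 0.694 (replicates 4, 5 and 6), and at E14.5 the close values 1.97, 2.35 and 2.59 (replicates 2, 3 and 4). The forebrain libraries thus overlapped those of other regions at E11.5, E12.5 and E13.5, and at E14.5 lay between the ventral midbrain and all the rest. There the ventral forebrain exceeded the dorsal midbrain by 1.19 ± 0.20 (adjusted p = 0.000752), the alar plate by 1.39 ± 0.20 (0.000391) and the hindbrain by 1.56 ± 0.20 (0.000212), 3 calls that were lost with all 60 libraries in 1 fit (0.341, 0.368 and 0.271).

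**Figure D2:**
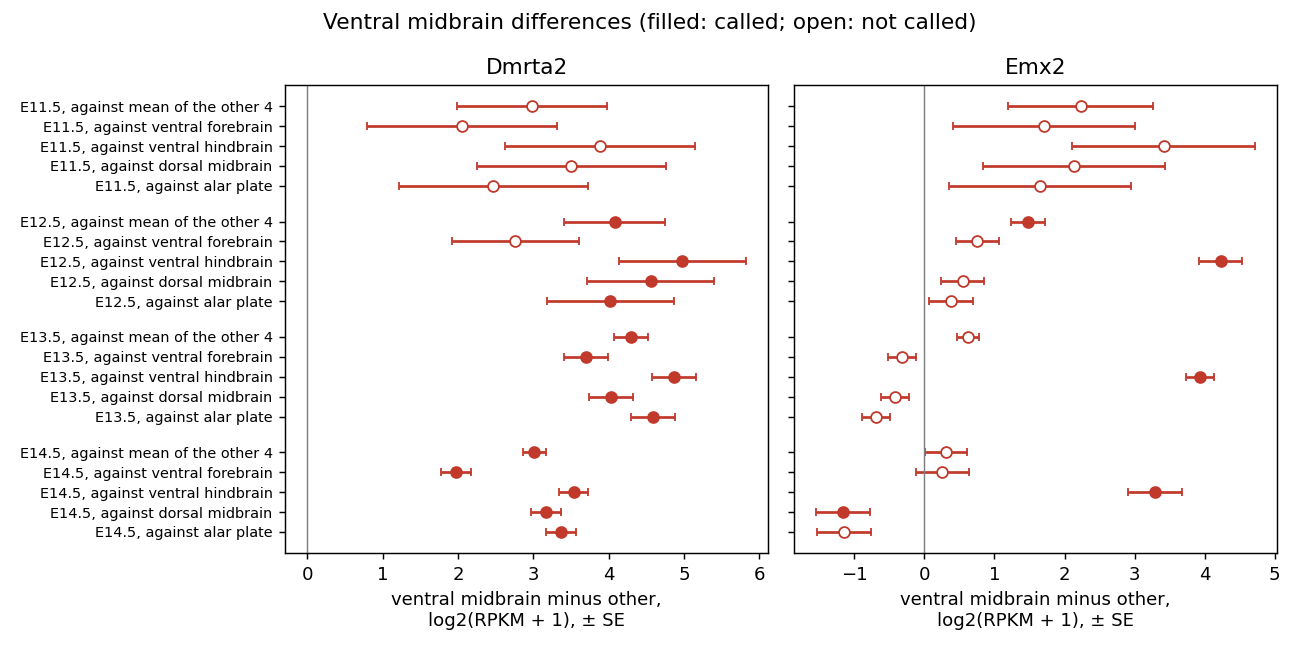
Difference between the ventral midbrain and the other regions on the log2(RPKM + 1) scale (horizontal axis, ± SE) for Dmrta2 and Emx2 by stage and comparison region (vertical axis), filled where called by limma. Dmrta2 is filled in 14 of 20 rows and right of 0 in all, whereas Emx2 lies left of 0 in 5 of 20: against the dorsal midbrain and alar plate at E13.5 and E14.5, and against the ventral forebrain at E13.5.

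Floor plate genes varied among the ventral forebrain libraries too, and 2 of the 7 markers are given here, chosen after their values were seen. At E12.5 Foxa2, which specifies the floor plate, and Lmx1a, which specifies dopaminergic and hem progenitors, were at 0.143 and 0.216 RPKM in replicate 1, where Dmrta2 was lowest. They were at 16.9 and 7.23 in replicate 2, and at 21.5 and 43.1 in replicate 3, where Dmrta2 was highest. At E11.5 replicate 2, with Dmrta2 at 28.1, had Lmx1a at 130 against 5.397 and 6.40 in replicates 4 and 6. Foxa2 differed less there, at 27.1 in replicate 2 against 16.1 and 21.2 in replicates 4 and 6. At E13.5 the order of Lmx1a differed, with 41.7, 26.9 and 61.2 in replicates 4, 5 and 6 and Dmrta2 lowest in replicate 6. Foxa2 was low but in the order of Dmrta2, at 1.40, 0.396 and 0.370 in the same replicates. The 7 markers summed to 519, 395 and 500.2 RPKM in the E11.5 replicates 2, 4 and 6, to 30.8, 106 and 210 in the E12.5 replicates 1, 2 and 3, to 157, 97.1 and 206 in the E13.5 replicates 4, 5 and 6, and to 86.8, 112 and 143 in the E14.5 replicates 2, 3 and 4. Dmrta2 followed the order of this sum at E12.5 and E14.5, but not at E11.5 or E13.5. The part of these markers in the Dmrta2 values was not tested. Replicate 1 of E12.5 is among the libraries that matched another region better. Without it Dmrta2 was higher in the ventral forebrain than in the other regions at E12.5, by 1.86 (adjusted p = 0.0417), against 0.63 with it (0.625). Without replicate 3 instead, the difference was -0.17 (0.946).

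**Figure D3:**
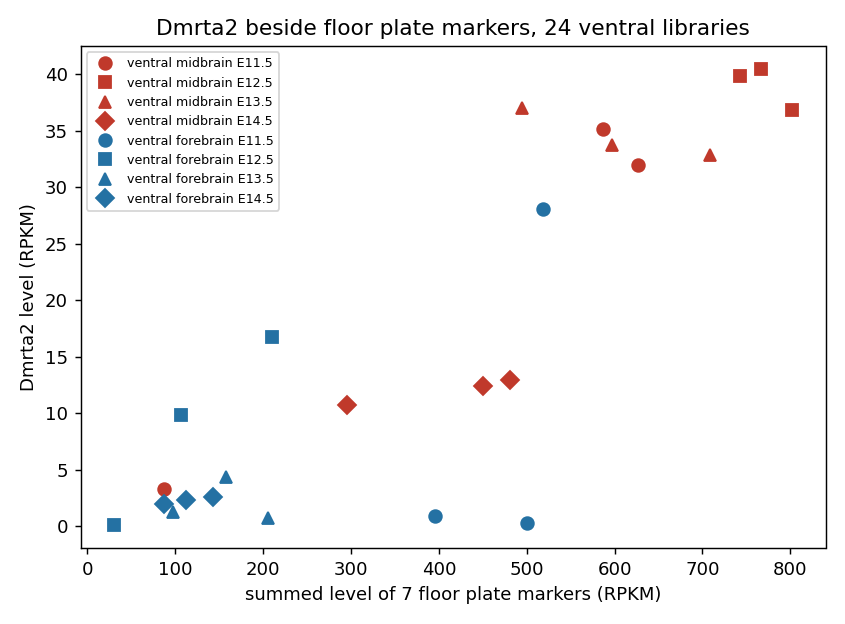
Dmrta2 level (vertical axis, RPKM) against the summed level of 7 floor plate markers (horizontal axis, RPKM) in the 24 ventral midbrain and ventral forebrain libraries, with a symbol per stage. The E14.5 ventral midbrain libraries lie at 10.7 to 12.9 with marker sums of 295 to 481, below the E12.5 and E13.5 ventral midbrain libraries on both axes, and ventral forebrain E11.5 replicates 4 and 6 have sums of 395 and 500.2 with Dmrta2 under 1.

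Over time, the E14.5 ventral midbrain libraries lay below all E12.5 and E13.5 libraries for Dmrta2. The change from E12.5 to E14.5 was -1.62 ± 0.59 with an adjusted p of 0.0539 in limma, so it was not called. It was called without ventral midbrain E11.5 replicate 4, which enters the same fit (-1.62, adjusted p = 2.93e-06), and without replicate 2 or replicate 6 of E11.5 (0.0414 and 0.0354). The change from E11.5 to E14.5 was -0.41 ± 0.59 (0.575) with that library and -1.41 ± 0.09 without it (3.36e-07). The floor plate marker sum also differed, at 743 to 801 RPKM at E12.5 and 295 to 481 at E14.5. The Dmrta2 level, which is not in that sum, equalled 4.60% to 5.36% of it at E12.5 and 2.69% to 3.63% at E14.5. In such bulk tissue, fewer cells with a transcript and less transcript per cell cannot be told apart. For the E14.5 to E12.5 change, the difference between the ventral midbrain and the mean of the other regions was -1.07 ± 0.71 and did not pass (adjusted p = 0.65; 0.253% of all genes were called). Without the 7 libraries that match another region better, the same difference was called against the dorsal midbrain alone at -1.39 (0.0179), the hindbrain at -1.44 (0.0161) and the alar plate at -1.47 (0.0309). With every library 0.0984%, 0.0703% and 0.0773% of all genes were called in these comparisons, and no member. The shares of all genes in the fit without the 7 libraries are not given here, so its calls cannot be set beside them.

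Dmrta1, the nearest relative of Dmrta2, had low values of a partly similar pattern. In the ventral midbrain it was at 1.71, 1.45 and 1.34 RPKM in the E12.5 replicates 1, 2 and 3, from 62, 68 and 58 reads. The dorsal midbrain was next at 0.882, 0.672 and 0.950, with no overlap, and the other regions stayed at or below 0.867. The difference from the mean of the 4 other regions was 0.94 ± 0.14 (limma adjusted p = 0.000488), just under the fold threshold. It passed at 2.33 with a pseudocount of 0.1 and at 3.11 in voom on whole reads. Dmrta1 was above the ventral forebrain by 1.13 and above the hindbrain by 1.28 (both called, and both lost with all 60 libraries in 1 fit, at 0.133 and 0.13). It was tested at E12.5 only because its ventral midbrain mean of 1.502 passed the filter, so these calls are no support for a difference, and it was not tested at E13.5 or E14.5. In the dorsal midbrain Dmrta1 stood at 0.748, 2.05 and 2.13 at E11.5 and at 0.125, 0.257 and 0.878 at E14.5, a change of -0.88 ± 0.25 (adjusted p = 0.0105) that missed the fold threshold. It passed without dorsal midbrain E11.5 replicate 2 (-1.16, 0.00154) or E14.5 replicate 4 (-1.10, 0.00318). In that region Dmrta1 reached the filter only through its E11.5 mean of 1.64, so this is no support for a change.

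Dmrt3, a partner of Dmrta2 in the telencephalon, was listed at 0 in 41 of 60 libraries and in all 15 of E14.5. Its floor of 3 reads lay between 0.0511 and 1.23 RPKM, so low levels were not detectable at this depth, and the floor covers counting error only. It reached 1 RPKM in 4 libraries: alar plate E11.5 replicate 4 at 25.7, alar plate E12.5 replicate 3 at 2.03, dorsal midbrain E12.5 replicate 3 at 1.09 and ventral forebrain E11.5 replicate 4 at 1.02. In the comparisons of regions it passed the filter at E11.5 only, through the first of these libraries. Dmrt3 sits between Dmrt1 and Dmrt2, 5.97 kb and 48.5 kb away, and both neighbours had 3 or fewer reads in 59 of 60 libraries. Of the 9 Dmrt genes in the file, 3, 2 and 2 were tested in the ventral midbrain at E12.5, E13.5 and E14.5, and 1 of them (Dmrta2) was called higher each time, where 2.73%, 1.92% and 2.08% of all genes were. Dmrtb1, a germline member of the family, was detected in all 60 libraries, with group means of 3.21 to 35.3 RPKM, and was not called in the ventral midbrain or the ventral forebrain at any stage.

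Emx2 had the widest reach of the 5 genes and was all but missing from the ventral hindbrain, where its 12 libraries ran from 0 to 1.37 RPKM. It was at or above 1 RPKM in 45 of 60 libraries. At E12.5 its means were 23.3 ± 4.04 RPKM (SD, n = 3) in the ventral midbrain, 18.2 ± 5.81 in the alar plate, 15.6 ± 1.45 in the dorsal midbrain and 14.3 ± 6.27 in the ventral forebrain. The neighbours in this order overlapped and did not differ by test, while each of the 4 lay above the hindbrain (0.308 ± 0.297) by 3.48 to 4.23. The hindbrain was also lowest at E13.5, by 3.94 to 4.63, and at E14.5, by 3.04 to 4.46 (all called by limma). The ventral midbrain differed from the mean of the 4 others at E12.5 by 1.48 ± 0.24 (adjusted p = 0.00133, or 0.116 with all 60 libraries in 1 fit). That mean holds the hindbrain at a difference of 4.23, and against the forebrain, dorsal midbrain and alar plate singly the differences were 0.75, 0.54 and 0.38, none of them called. In all, 10 of 40 member contrasts between pairs of regions were called at E12.5, against 4.34% for all genes (0.0947% to 9.92% in single pairs). At E13.5 it was 9 of 30 (5.14%; 1.83% to 12.3%) and at E14.5 16 of 30 (4.79%; 0.821% to 11.55%). With all 60 libraries in 1 fit it was 7 at E14.5, and the share of all genes in that fit is not given here. At E11.5 limma called 0 of 50 (0.0993%; 0% to 0.601%), voom also 0, and 3 had an unadjusted p under 0.05. The called contrasts include 2 of Dmrta1 and 1 of Emx1 at E12.5, and 2 of Emx1 at E14.5. Those genes passed the filter only through groups where they were high. The pairs of a gene also share group means, so these counts cannot be read as an excess over the shares of all genes.

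At E13.5 and E14.5 the ventral midbrain mean was below those of the dorsal midbrain and alar plate, whereas at E12.5 it was the highest, though not called against the forebrain, dorsal midbrain or alar plate. At E14.5 the dorsal midbrain gave 43.8, 30.7 and 18.3 RPKM (replicates 2, 3 and 4) and the alar plate 26.5, 34.6 and 25.8. The ventral midbrain gave 16.8, 10.4 and 10.9, below every library of those regions, and the ventral forebrain 5.94, 10.2 and 17.2. Emx2 was lower in the ventral than in the dorsal midbrain by 1.17 on the log2 scale (-1.17 ± 0.38, limma adjusted p = 0.0259), 2 regions that share a run at E14.5. This call was lost without ventral midbrain replicate 3 or 4 (0.0812 and 0.0755), without dorsal midbrain replicate 2 or 3 (0.106 and 0.0649), with a pseudocount of 0.1 (0.193) and with all 60 libraries in 1 fit (0.231). Against the alar plate the difference was -1.15 ± 0.38 and missed the threshold (0.0655). The ventral forebrain was below the dorsal midbrain by a difference of -1.43 ± 0.38 (0.0178) and below the alar plate by -1.40 ± 0.38 (0.0393). The first call was lost without ventral forebrain replicate 2 or dorsal midbrain replicate 2 (0.0903 and 0.0698), with a pseudocount of 0.1 (0.157) and with all 60 libraries in 1 fit (0.19). The second was lost with that pseudocount (0.267), with no filter (0.0642), in that 1 fit (0.302) and in 8 of 15 fits that left out 1 library: ventral forebrain replicate 2 or 3, alar plate replicate 2, 3 or 4, ventral midbrain replicate 3 or 4, or dorsal midbrain replicate 3 (0.0502 to 0.144).

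**Figure D4:**
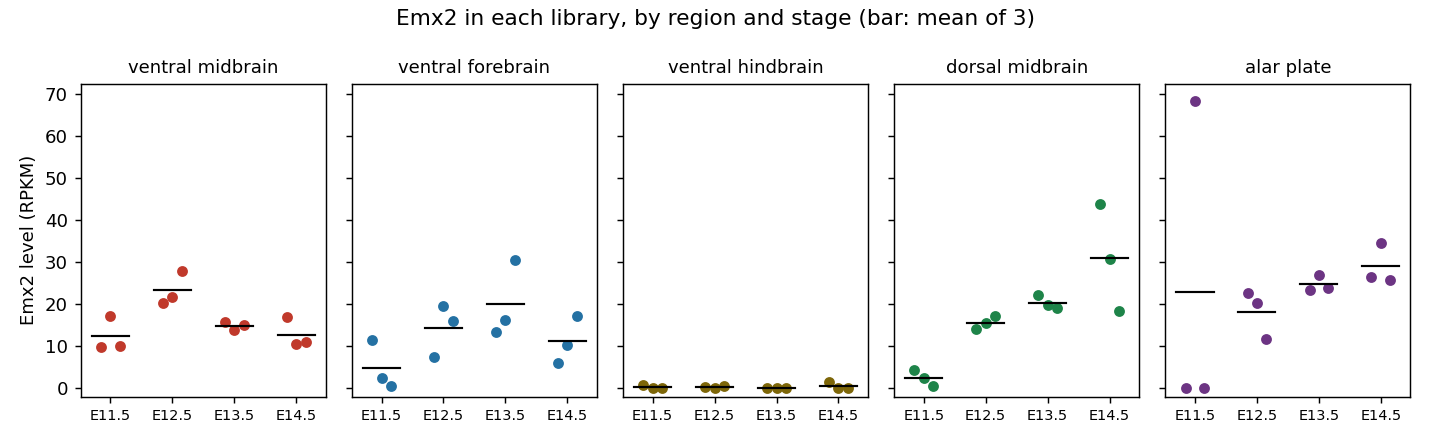
Emx2 level in RPKM (vertical axis) in each library (points) by stage (horizontal axis) and region (panels), with the mean of 3 as a bar. The dorsal midbrain goes from at most 4.24 at E11.5 to between 18.3 and 43.8 at E14.5, the ventral midbrain is highest at E12.5, and the alar plate mean at E11.5 rests on 1 library at 68.3 with the other two at 0.

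The dorsal midbrain held the one member called between E11.5 and E14.5. Emx2 there was at 4.24, 2.36 and 0.430 RPKM at E11.5 (replicates 2, 4 and 6) and at 14.2, 15.5 and 17.1 at E12.5 (replicates 1, 2 and 3). It then stood at 22.2, 19.7 and 19.0 at E13.5 (replicates 4, 5 and 6), with each stage from E11.5 to E13.5 above the last and no overlap. From E11.5 to E14.5 it rose by 3.36 ± 0.39 (limma adjusted p = 4.84e-05), and between E11.5 and E12.5 by 2.50 ± 0.39 (0.000514; 7.77% of all genes were called). Along the same stages the summed blood markers of the dorsal midbrain (4 of the list's 5 in the file) lay between 4784 and 8114 RPKM at E11.5 and between 983 and 1710 a stage later. They lay between 576 and 1444 at E13.5, and between 151 and 524 in the last stage, where 1 of the 4 was at 0 in 1 library. Their part in the Emx2 result was not tested. From E11.5 to E14.5, 15.9% of all genes were called, and 1 of 3 members tested. In the ventral midbrain 0 of 4 were called from E11.5 to E14.5 (17.8% of all genes; none at an unadjusted p under 0.05 and none by voom). In the ventral forebrain 0 of 3 were called (16.4%; 1 unadjusted and 0 by voom), and in the alar plate 0 of 5 (20.2%; 2 unadjusted and 1 by voom). No member reached 1 RPKM as a mean in the hindbrain, so none was tested there (16.6% of all genes were called).

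In the ventral midbrain Emx2 went the other way after E12.5. It was at 9.75, 17.1 and 10.02 RPKM at E11.5 (replicates 2, 4 and 6), 20.3, 21.8 and 27.9 at E12.5 (replicates 1, 2 and 3), and 15.8, 13.8 and 15.03 at E13.5 (replicates 4, 5 and 6). All E12.5 libraries lay above all those of the other 3 stages. The change from E12.5 to E14.5 was -0.84 ± 0.21 (limma adjusted p = 0.0101), past the p threshold but under the fold threshold, and 4.23% of all genes were called in it. It was called without E14.5 replicate 2 (-1.05, 0.00462). In the dorsal midbrain the same interval gave 0.87 ± 0.39 (0.16; 0.883% of all genes were called), with all E14.5 libraries above all E12.5 libraries. The difference between the changes was -1.71 ± 0.52, with an unadjusted p of 0.00331 and an adjusted p of 0.245, so it was not called, and 0.0984% of all genes were. This contrast is balanced for run if, as the shared prefix reads, the E12.5 libraries were 1 run. From E11.5 the difference between the ventral midbrain and the mean of the others was -1.92 ± 1.13 for Emx2 (0.438), with 0 of 5 members called (0.918% of all genes; 0 unadjusted, 0 by voom). It was called at -2.43 without alar plate E11.5 replicate 4 (0.0434).

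The ventral forebrain and alar plate values of Emx2 at E11.5 were uneven. The forebrain gave 11.3, 2.44 and 0.445 RPKM on the first day, 7.38, 19.6 and 15.9 on the next and 13.4, 16.3 and 30.4 at E13.5. In its E11.5 replicates 2, 4 and 6, Otx2 was at 85.4, 13.8 and 8.56 RPKM and the midbrain and isthmus gene En1 at 0.584, 18.2 and 19.6. In its E12.5 replicates 1, 2 and 3, Otx2 was at 43.1, 37.0 and 26.8. Forebrain E11.5 replicate 4 and E12.5 replicate 1 matched another region better. The part of tissue composition in the forebrain Emx2 values was not tested. The step from E11.5 to E12.5 was called at 1.86 ± 0.67 (limma adjusted p = 0.0389; 17.9% of all genes were called), and with the replicate number as a block it was 1.78 (0.27). It was also lost in voom (0.0595), with no filter (0.061) and in 6 of 12 fits without 1 library: E11.5 replicate 4 or 6, E12.5 replicate 2 or 3, E13.5 replicate 5 or E14.5 replicate 3 (0.0511 to 0.147). At E13.5 the forebrain exceeded the 4 others on average by 1.03 ± 0.16 (0.00099, or 0.611 with all 60 libraries in 1 fit), 1 of 3 members where 1.82% of all genes were called. Without replicate 6 that difference was 0.70 and under the fold threshold. The mean of the 4 others holds the hindbrain, where Emx2 averaged 0.0374 RPKM at E13.5. The forebrain mean of Emx2 was then 0.811 times the alar plate mean and 0.986 times the dorsal midbrain mean. It was 1.34 times the ventral midbrain mean. Against single regions, the forebrain was called for Emx2 at E13.5 only against the hindbrain. The forebrain had 0 members called at E11.5 (0% of all genes, 0 unadjusted and 0 by voom), at E12.5 (0.597%, 3 unadjusted and 0 by voom) and at E14.5 (2.32%, 1 unadjusted and 1, Dmrta2, by voom). In the alar plate Emx2 gave 0, 68.3 and 0 at E11.5 (replicates 2, 4 and 6) and 22.6, 20.3 and 11.6 at E12.5 (replicates 1, 2 and 3). Its E13.5 libraries lay between 23.4 and 26.9. From E11.5 to E14.5 the alar plate change was 2.86 ± 1.25 and did not pass (0.0866), and without E11.5 replicate 4 it was 4.89 ± 0.24 (7.89e-06). The latter fit rests at E11.5 on replicates 2 and 6, and replicate 2 also matched another region better. Otx2, a homeobox gene of the forebrain and midbrain, was at 2.80 and 4.88 RPKM in them and at 60.4 in replicate 4. It was at 86.1, 84.5 and 62.6 in the E12.5 alar plate replicates 1, 2 and 3. The part of tissue composition in these Emx2 values was not tested.

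Emx2 has an antisense neighbour, Emx2os (chr19:59425104-59458635, minus strand), and their annotated exons share 264 bases. Whether reads were counted by strand is not given in the sources used here, so reads of the shared stretch cannot be told apart. In the 45 libraries with Emx2 at 1 RPKM or more, Emx2os stood at 5.72% to 32.9% of the Emx2 level, with a median of 10.5%. Across the 20 group means the pair had a Pearson correlation of 0.947, over groups that share libraries and this overlap. Emx2os was at 2.83 to 3.30 RPKM in the ventral midbrain at E12.5 and at 1.88 to 3.41 at E14.5, with medians of 2.84 and 2.81, where Emx2 was lower at E14.5. In the dorsal midbrain it ranged from 0 to 0.406 at E11.5 and from 1.64 to 3.47 at E14.5, higher at the later stage like Emx2.

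Emx1, the cortical relative of Emx2, was low nearly everywhere, with 15 of 60 libraries at or above 1 RPKM. In the alar plate it was at 2.04, 1.32 and 0.568 at E12.5 (replicates 1, 2 and 3), 2.01, 1.36 and 1.64 at E13.5 (replicates 4, 5 and 6) and 1.56, 0.658 and 1.28 at E14.5 (replicates 2, 3 and 4). At E14.5 all 6 libraries of the hindbrain and the dorsal midbrain were listed at 0. The alar plate value rested on 4, 3 and 10 reads, and the alar plate exceeded both regions by 1.09 ± 0.26 (limma adjusted p = 0.0219 and 0.0253, both called). Emx1 was tested at E14.5 only because its alar plate mean of 1.17 passed the filter, so these calls are no support for a difference. With all 60 libraries in 1 fit both were lost (0.372 and 0.297). The hindbrain call was lost without alar plate replicate 4 or hindbrain replicate 3 or 4 (0.0773 to 0.101). The dorsal midbrain call was lost without alar plate replicate 4 or dorsal midbrain replicate 3 or 4 (0.0552 to 0.107). In the ventral forebrain Emx1 was at 0.250, 2.79 and 2.63 at E12.5 (replicates 1, 2 and 3) and at 0.315, 0 and 0.135 at E14.5 (replicates 2, 3 and 4). The E12.5 forebrain exceeded the dorsal midbrain by 1.09 ± 0.37 (0.0448). That call was lost with the replicate number as a block (0.0502), in voom (0.0691), and in 11 of 15 fits without 1 library (0.0523 to 0.186).

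**Figure D5:**
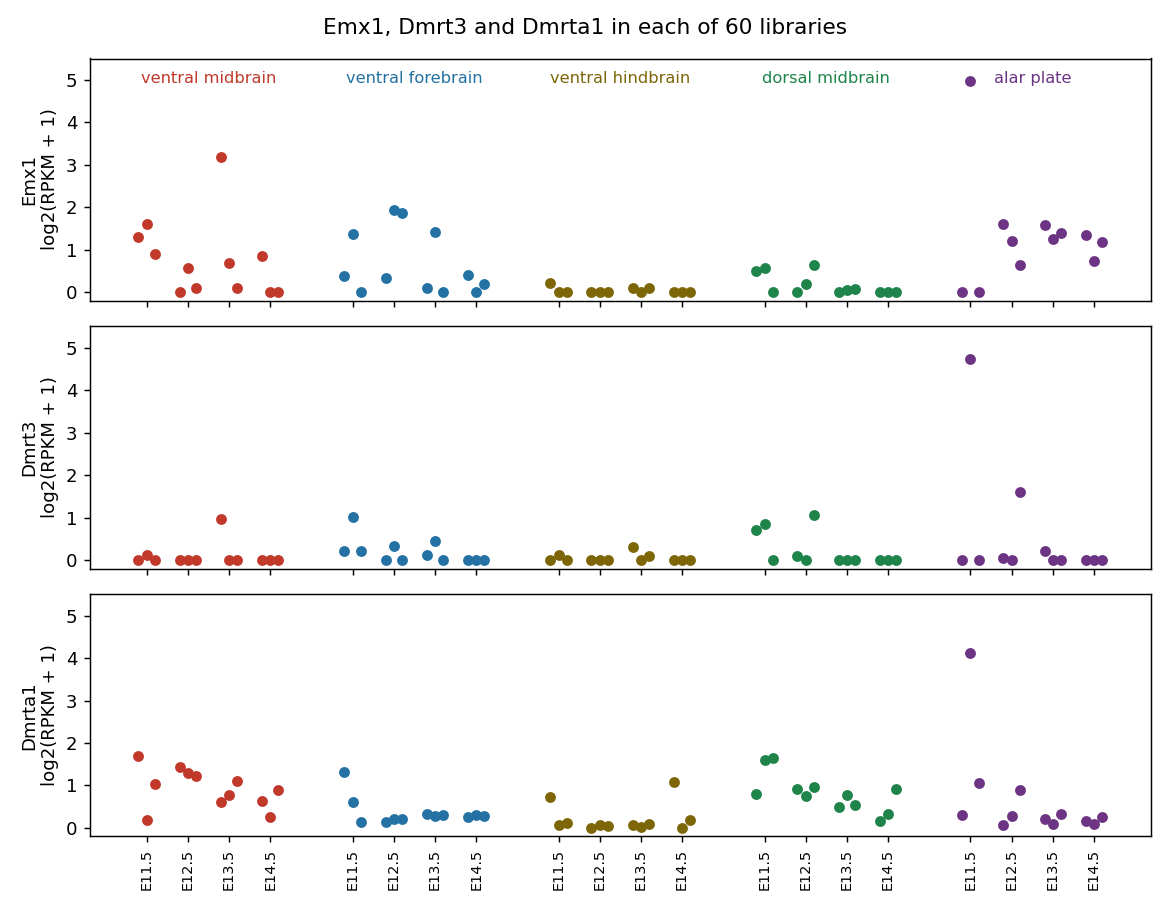
Level of Emx1, Dmrt3 and Dmrta1 (rows, log2(RPKM + 1) on the vertical axis) in each of 60 libraries by region and stage (horizontal axis). In all 3 rows the highest point is alar plate E11.5 replicate 4, at 30.3, 25.7 and 16.4 RPKM, and the next highest Emx1 point is ventral midbrain E13.5 replicate 4 at 8.06.

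One library held the highest level of Emx2, Emx1, Dmrt3 and Dmrta1 in the series. Alar plate E11.5 replicate 4 had 68.3 RPKM of Emx2, 30.3 of Emx1, 25.7 of Dmrt3, 20.1 of Dmrta2 and 16.4 of Dmrta1, while replicates 2 and 6 of its group had 0, 0, 0, at most 0.314 and at most 1.10. It also had the pallial genes Fezf2 at 31.1, Tbr1 at 13.8 and Eomes at 13.4, and the hem-related genes Wnt8b at 89.8 and Rspo3 at 128. Its mesenchyme markers (Col1a1, Col1a2, Col3a1, Dcn and Lum) summed to 548 RPKM, against 6.27 and 3.96 in replicates 2 and 6. Its blood markers summed to 15558, against 2067 and 2136. Ventral midbrain E13.5 replicate 4 had Emx1 at 8.06, Dmrt3 at 0.969 and Fezf2 at 4.18, against Emx1 at 0.614 and 0.0770 in replicates 5 and 6. Its Dmrta2 was at 37.0 against 33.7 and 32.8, and its Emx2 at 15.8 against 13.8 and 15.03. Its mesenchyme markers summed to 338 RPKM, against 4.78 and 5.24 in replicates 5 and 6. Its vessel markers (Pecam1, Cdh5, Cldn5 and Kdr) summed to 93.7, against 46.6 and 52.1. Its blood markers, at 838, lay between those of replicates 5 and 6 (956 and 727). The part of cortical, mesenchymal, vessel or blood tissue in these libraries was not tested. Without alar plate E11.5 replicate 4, Emx1 was higher in the alar plate at E14.5 than at E11.5 by 1.09 (adjusted p = 0.0144), against -0.56 ± 1.03 with it (0.68). The fit without it rests at E11.5 on replicates 2 and 6, whose low Otx2 is given above. The Pearson correlation of Dmrta1 and Dmrt3 over the 20 group means was 0.811 with replicate 4 and 0.319 without it, and that of Dmrt3 and Emx1 0.761 and 0.353.

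The neighbours of these genes in known programmes moved in several ways, by lists chosen with earlier results of these data known. Of 20 genes of medial ventral midbrain progenitors, Dmrta2 among them, 17 of 20 tested were higher in the ventral midbrain at E12.5, 16 of 20 at E13.5 and 14 of 19 at E14.5, with 0, 0 and 1 lower. Of all genes 2.73%, 1.92% and 2.08% were called higher. Their median differences were 3.49, 2.91 and 2.52, against -0.03, -0.01 and -0.03 for all genes. Dmrta2 at 4.08, 4.30 and 3.01 lay above the list's median at each of these stages. At E12.5 the smallest adjusted p belonged to Corin (3.92), Ferd3l (3.62), Wnt1 (1.85) and Msx2 (1.38). Corin and Ferd3l mark the midbrain floor plate. The list of pallial and hem patterning genes, which holds all 5 members, split in the ventral midbrain at E12.5, with 5 higher and 5 lower of 25, where 2.73% of all genes were called higher and 0.801% lower. Lhx2, a selector of cortical identity, was lower by a difference of -4.85, Nr2f1 by -2.16 and Gli3 by -2.41. Lmx1a, a hem gene that is also among the floor plate markers above, was higher by 5.24. The members Dmrta2 and Emx2 are also among the 5 higher. Lmx1a, Dmrta2, Neurog2 and Rspo2 stand on the medial ventral midbrain list as well, so these lists overlap. The median of the pallial and hem list there was -0.31.

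Among subpallial and boundary genes, which mark the territory that Emx2 and Dmrta2 border in the telencephalon, 4 of 14 were lower and 1 higher in the ventral midbrain at E12.5 (median -0.74, against -0.03 for all genes). Of all genes 0.801% were called lower there and 2.73% higher. In the ventral forebrain 10 of 14 were higher and 1 lower at E14.5 (median 2.81, against 0.03 for all genes, of which 1.43% were called higher and 0.885% lower), with Nkx2-1 (6.04), Dlx1 (5.87), Dlx2 (4.39) and Dlx5 (3.76) first. Nkx2-1 is also the hypothalamic marker given above, so this list does not tell telencephalic from hypothalamic tissue here.

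Named genes with a pattern most like each member were ranked by Pearson correlation of log2(RPKM + 1) over the 20 group means, which share regions, runs and libraries. For Dmrta2 they were Folr1 (0.900), a folate receptor gene, Foxd2 (0.894), a forkhead factor gene, and Mboat1 (0.873). Foxd2 (0.928) and Folr1 (0.916) were again among the first 3 without alar plate E11.5 replicate 4. For Emx2 they were Nrn1 (0.739), Pdcd4 (0.739) and Otx2 (0.728), the last a homeobox gene of the forebrain and midbrain. Without alar plate E11.5 replicate 4 the first were Rasgef1b (0.835), Islr2 (0.833) and Pdcd4 (0.832), and over the 15 means without E11.5 Bmp7 (0.904) led. For Dmrt3 they were Gmnc (0.958), Rspo3 (0.855) and Bmp4 (0.834), and for Dmrta1 Gbe1 (0.894), Gmnc (0.836) and Msx2 (0.826), all with their highest mean in the alar plate at E11.5. None of these Dmrta1 genes was among its first 3 without the 1 library described above, where Plekhg1 (0.912) led. For Emx1 they were Gmnc (0.692), Gpn1 (0.614) and Snhg3 (0.586), none of them among the first 3 without that library, where Six3 (0.734) led.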

How the data were processed

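Total RNA from 60 dissected tissue samples was made into TruSeq libraries, per the labels' protocols, and mapped with Bowtie to mm10, per the submitters' processing notes. The sources used here do not give the read counter, the annotation or the strand setting. The authors deposited RPKM values, which, multiplied by the listed transcript length sum to 1000000 per library, and whole reads were recovered for 100% of values within 0.001 read. Samples were grouped by region and stage from their titles. limma 3.58.1 with a mean-variance trend in R 4.3.3 was fitted to log2(RPKM + 1), which understates changes of low genes, for genes whose mean reached 1 RPKM in some fitted group: within each stage over 5 regions, within each region over 4 stages, and over 2 stages for differences between changes. Calls needed a Benjamini-Hochberg adjusted p below 0.05 over all tested genes and an absolute change of at least 1. Named genes were the 5 members, the 3 most correlated genes per member with a highest group mean of at least 5 RPKM, and up to 4 genes per list by adjusted p, and other genes named were chosen after their values were seen. The members and lists were chosen with earlier results of these data known. The test was run on simulated counts for the ventral midbrain against the other regions at E12.5 and E14.5. Changed genes there had a mean of at least 5 RPKM, and all genes had the same spread setting. That check therefore does not cover low genes or uneven libraries. Alternatives were a pseudocount of 0.1, no filter, median-ratio scaling, voom on the recovered reads, 1 fit of all 60 libraries, a replicate block and each library left out. Chosen after seeing the data were the contrasts from E12.5 to E14.5, contrasts within a run, and fits without libraries that matched another region better. Promoter and annotation tables matched all 5 members.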

Additional observations from a re-analysis of the deposited data

Results flagged for a closer look

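From E12.5 to E14.5, Emx2 moved in opposite directions in the ventral midbrain and in 2 other regions: all 3 ventral midbrain libraries of E14.5 lay below all 3 of E12.5, while in the dorsal midbrain and in the alar plate all 3 of E14.5 lay above all 3 of E12.5. The difference of the changes on the log2 scale was -1.71 ± 0.52 against the dorsal midbrain, with a limma adjusted p of 0.245, and -1.53 ± 0.52 against the alar plate, with 0.363. Neither was called. Over the alternatives the adjusted p against the dorsal midbrain ranged from 0.0861 to 0.708. At E14.5 the alar plate was in another run than the ventral midbrain, and the dorsal midbrain in the same one. The changes within the ventral and the dorsal midbrain, given above, were not called either. Alar plate E12.5 replicate 3, the lowest of its group for Emx2, is among the libraries that matched another region better. The contrasts from E12.5 to E14.5 were chosen after seeing the data. The share of all genes with libraries apart in this way is not given here. The orders of the libraries are therefore no support for opposite changes.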

How the results depend on the processing

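Of 1865 values under an alternative, for 84 results, 1720 kept their direction and their side of the thresholds, 67 lost a call, 38 gained one, 10 changed sign and 30 counts moved by over 1.5 times. With all 60 libraries in 1 fit, members called went from 0 to 2 (ventral midbrain E11.5), 2 to 1 (ventral midbrain E12.5), 1 to 0 (ventral forebrain E13.5) and 0 to 3 (alar plate over time), and called pairs of regions from 0 to 4 at E11.5 and from 16 to 7 at E14.5. With the 0.1 pseudocount, and with voom, 2 members were called in the ventral midbrain at E13.5, 1 in the ventral forebrain at E14.5 and 2 in the dorsal midbrain over time, and voom called 1 in the alar plate over time. Without the libraries that match another region better, called pairs were 20 at E12.5. Members called were then 2 in the ventral forebrain at E12.5 and 1 in the ventral midbrain over time. The shares of all genes called under the alternatives of this section are not given here. A shift of the members therefore cannot be told from a shift of all genes. Within runs at E14.5 the ventral midbrain was compared with the dorsal midbrain alone, and the ventral forebrain with the hindbrain and alar plate. In these narrower comparisons 2 members were called in the ventral midbrain and 1 in the ventral forebrain. The Emx2 value of -1.17 in the first is the difference from the dorsal midbrain given above. Leaving out 1 library gave 0 to 2 members in the ventral forebrain at E12.5 (2 without its replicate 1), 0 to 1 at E13.5 (0 without its replicate 6), 0 to 1 in the ventral midbrain over time (1 without E11.5 replicate 4), 0 to 1 in the ventral forebrain (1 without E11.5 replicate 2), 1 to 2 in the dorsal midbrain, 0 to 2 in the alar plate and 0 to 1 for the difference of changes. Called pairs at E12.5 were 9 to 16 (16 without ventral forebrain replicate 1). The Emx1 change in the alar plate from E11.5 to E14.5, -0.56, was 0.84 with the smaller pseudocount, 1.38 by voom, and 1.09 without the libraries that match another region better, and leaving out 1 library gave -1.39 to 1.09. Leaving out 1 library also turned the sign of 2 uncalled Dmrta2 values: the ventral forebrain difference at E12.5 (-0.17 to 1.86) and the ventral midbrain change over time (-1.41 to 0.13). The Dmrta2 difference of changes from E12.5 between ventral midbrain and alar plate, -0.65, was 0.15 with the smaller pseudocount and 0.13 by voom. The cause was not tested. Of 30 pairs of same-numbered libraries per stage, 11, 18, 21 and 13 had a correlation above 0.1, from the first stage to the last. Their medians were 0.000937, 0.252, 0.197 and 0.0831, against -0.00881, -0.104, -0.0868 and -0.0591 for other numbers. Since not every pair passed 0.1, the numbers were not taken as pairing the libraries, though the middle stages hint at it. With a replicate block 82 of 84 results kept their side of the thresholds and 2 calls ended, Emx1 in ventral forebrain against dorsal midbrain at E12.5 (1.09, adjusted p = 0.0502) and the Emx2 step from E11.5 to E12.5 in the ventral forebrain (1.78, 0.27). At E14.5 the depth of 0.979 to 6.13 times 1000000 reads limits Emx1, Dmrt3 and Dmrta1, which rest on few reads.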
